A study of Rattus norvegicus with 56 samples.

Results

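The insulin-like growth factor (IGF) genes measured in these rat mammary glands are the ligands Igf1 and Igf2, the receptor Igf1r and the binding proteins Igfbp2, Igfbp3, Igfbp4, Igfbp5 and Igfbp6. All probe sets that the array's annotation, updated by Entrez gene number, assigns to 1 of these 8 symbols were taken, whatever their values. This gave 16 probe sets of the 15866 tested and 8 genes of the 10411 with a symbol of their own on the array.

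The ligands bind the receptor, a tyrosine kinase that signals for growth and survival through insulin receptor substrates, PI3 kinase and Akt. Outside the cell the binding proteins hold most of the ligand, and proteases that cut them release it. In the mammary gland IGF1 from the stroma acts with growth hormone and estrogen on ductal growth, and IGFBP5 is known for its increase during involution.

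All glands came from female Wistar Furth rats. The treated animals carry the label RXR treatment, with no compound, dose or duration stated, and the controls are labelled only as control. RXR is the usual short name of the retinoid X receptors, which pair with other nuclear receptors on DNA, but the labels do not spell it out. Single glands of 12 treated and 12 control rats were hybridised to 1 array each, and the labelled targets of the same rats were also mixed into pools of 2 (6 treated, 6 control), pools of 3 (4 and 4) and pools of 12 (4 arrays of 1 mixture each). Rat 3 of each group was also hybridised to 2 further arrays. The design addresses what pooling does to such a comparison. By the estrous stage on the label, 6 treated rats were in diestrus and 6 outside it (3 in estrus, 1 in proestrus, 2 in proestrus or estrus), and 9 control rats were in diestrus and 3 outside it (2 in estrus, 1 in proestrus or estrus).

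The deposited values lie on a log2 scale from 4.12 to 14.08, with array medians of 7.40 to 7.47, so the arrays have a common centre. Epcam, an epithelial surface protein, averaged 11.39 in treated and 11.82 in control glands, and Col1a1, the fibrillar collagen of stroma, 13.04 in treated and 12.75 in control glands, so both main tissue parts were sampled. Some marker lists moved with the treatment, where 20.9% of all 10411 genes passed the same test (limma, adjusted p under 0.05). Of 9 measured adipocyte markers, 7 were higher and 1 lower (mean level 10.5 to 11.5 over treated rats, 10.1 to 11.1 over control rats). Of 12 luminal epithelial markers, 8 were lower and 0 higher (8.997 to 9.495 in treated rats, 9.323 to 9.620 in control rats). Of 9 basal epithelial markers, 4 were lower and 1 higher (9.58 to 10.2 in treated rats, 9.85 to 10.5 in control rats). Among other lists, 2 of 12 fibroblast markers were higher and 1 lower, 2 of 6 macrophage markers higher and 1 lower. Of 6 endothelial markers 0 were higher and 1 lower, and 0 of 7 lymphocyte and 0 of 7 skeletal muscle markers passed. In whole glands, fewer cells of a type and less RNA per cell cannot be told apart. The part of the marker shifts in the results below was not tested.

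Igfbp4 and Igfbp5 are the genes that passed the test of treatment, one in each direction, so their promoters are shown first. Both windows hold 250 bases before and 50 after the annotated start in RefSeq's GRCr8 assembly. Igfbp4 lies on the plus strand, with its window at chr10:84491221-84491520, and Igfbp5 on the minus strand, at chr9:81914138-81914437.
Igfbp4: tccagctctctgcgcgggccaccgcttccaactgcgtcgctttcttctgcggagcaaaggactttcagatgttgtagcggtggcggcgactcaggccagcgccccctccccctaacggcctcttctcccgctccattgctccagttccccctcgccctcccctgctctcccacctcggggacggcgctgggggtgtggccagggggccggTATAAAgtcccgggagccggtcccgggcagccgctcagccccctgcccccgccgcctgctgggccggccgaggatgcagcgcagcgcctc
Igfbp5: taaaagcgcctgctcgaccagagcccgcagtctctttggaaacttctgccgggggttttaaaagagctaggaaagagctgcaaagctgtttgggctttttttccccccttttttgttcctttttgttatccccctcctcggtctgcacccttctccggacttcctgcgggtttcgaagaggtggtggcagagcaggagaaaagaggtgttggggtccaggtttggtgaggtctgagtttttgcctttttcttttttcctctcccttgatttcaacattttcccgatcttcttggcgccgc
Capitals mark a TATAAA box, which stands 40 bases before the Igfbp4 start. The windows were searched on both strands for TATAAA, for the GC box GGGCGG and for AGGTCA, the half-site bound by nuclear receptors that pair with RXR. The Igfbp5 window held none of these letters, and the Igfbp4 window held no other. Over 33469 promoter windows of the same length, 14.2% held TATAAA, 33.1% GGGCGG and 16.2% AGGTCA. Among the 9 windows of the 8 genes, the half-site occurred in the windows of Igf1 and Igfbp6, once in each. These motifs were chosen after the array values were known, and a match describes letters only.

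The treatment was tested first in single rats, with limma across all probe sets and Benjamini-Hochberg adjustment. Of the 16 IGF probe sets, 1 was higher, 1 was lower and 14 did not pass an adjusted p of 0.05. Over all probe sets tested 18.1% passed, 8.46% higher and 9.59% lower. The median difference, treated minus control, was -0.0046 for the IGF probe sets and -0.0025 for all. The share of IGF probe sets called was therefore no higher than on the array as a whole.

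**Figure D1:**
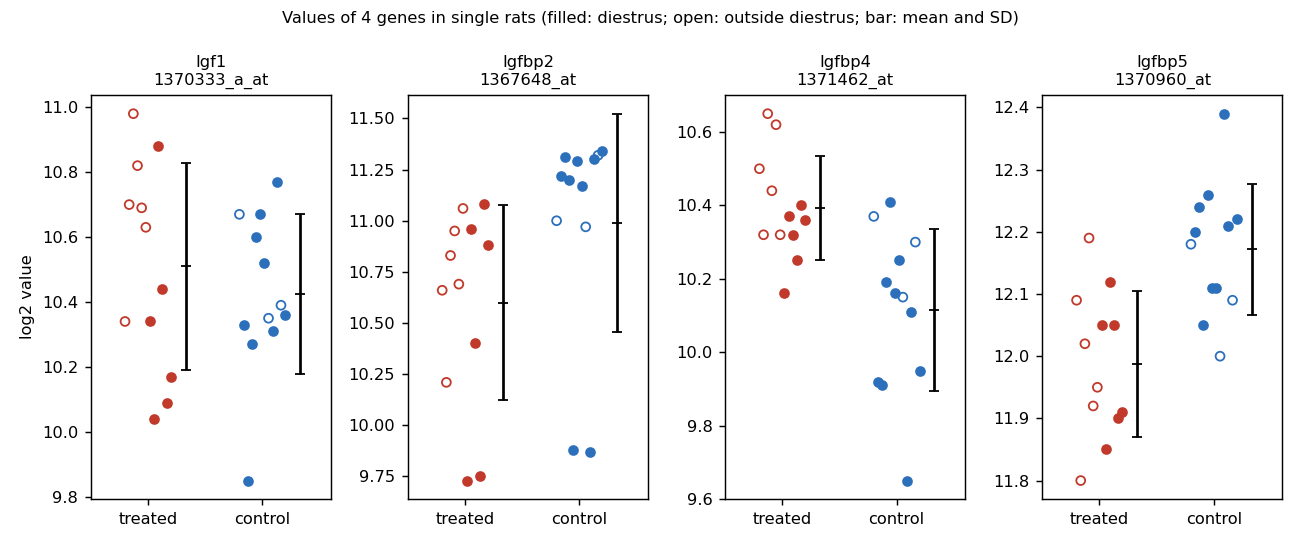
Log2 values (vertical axes, each with its own range) of Igf1, Igfbp2, Igfbp4 and Igfbp5, 1 probe set each, in 12 treated (left, red) and 12 control rats (right, blue). Filled points are rats in diestrus, open points rats outside it, and the bar gives the mean and SD; all 12 treated rats lie above the control mean for Igfbp4 and 11 of 12 below it for Igfbp5.

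Igfbp4 encodes a binding protein that is known mainly to inhibit IGF action until the protease PAPP-A cuts it. Its probe set 1371462_at had its lowest value at 10.16, its median at 10.365 and its highest at 10.65 in treated rats, against 9.65, 10.155 and 10.41 in control rats. The groups overlapped, but all 12 treated rats lay above the control mean and 4 lay above the highest control rat. The mean was 10.39 ± 0.14 in treated and 10.11 ± 0.22 in control rats (SD, n = 12 each). The log2 difference was 0.28 ± 0.07 (SE), a 1.21-fold higher level, with a limma adjusted p of 0.00747. Leaving out each rat in turn kept the difference between 0.24 and 0.31 and the adjusted p at or below 0.0159.

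Igfbp5 encodes a binding protein that attaches to the extracellular matrix. Its brightest probe set, 1370960_at, stood at the 99.1 percentile of the array. In treated rats its lowest, median and highest values were 11.80, 11.985 and 12.19, against 12.00, 12.19 and 12.39 in control rats. Of the 12 treated rats, 6 lay below the lowest control rat and 1 lay above the control mean. The log2 difference was -0.18 ± 0.05 (SE), 0.880-fold, with a limma adjusted p of 0.00490. Without each rat in turn the difference ranged from -0.20 to -0.16 and the adjusted p stayed at or below 0.0101.

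The other 2 probe sets of Igfbp5 gave lower treated means that did not pass. Probe set 1387348_at averaged 9.27 ± 0.17 in treated and 9.37 ± 0.22 in control rats (SD, n = 12 each), a log2 difference of -0.10 with an adjusted p of 0.438. Probe set 1387347_at averaged 8.53 ± 0.28 in treated and 8.65 ± 0.33 in control rats, a difference of -0.11 with an adjusted p of 0.600. The annotation lists these 2 probe sets under 1 source sequence and the brightest under another. These 2 also did not follow the brightest one from rat to rat. After removal of the group means, they correlated with each other (Pearson r = 0.831, p = 1e-05, adjusted p = 3e-05; Spearman rho = 0.761, p = 2e-05, adjusted p = 6e-05; two-sided permutation test, 24 rats; r = 0.760 without the 2 rats farthest from the median). Probe set 1370960_at had an r of 0.0508 with 1387348_at (p = 0.812) and of -0.0922 with 1387347_at (p = 0.673). The call for Igfbp5 therefore rests on 1 of its 3 probe sets.

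Igfbp2, a binding protein abundant in fetal tissues, stood at the 97.1 percentile of the array. It ranged from 9.73 to 11.08 in treated rats with a median of 10.76, against 9.87 to 11.34 in control rats with a median of 11.21. None of the treated rats reached the control median, that is 0 of 12. The log2 difference of -0.39 ± 0.19 (SE; 95% confidence interval -0.79 to 0.01) did not pass, with an adjusted p of 0.184. In each group 2 rats lay far below the rest, at 9.73 and 9.75 among treated rats and at 9.87 and 9.88 among control rats. With limma's array weights, which give noisier arrays less weight, the difference was -0.51 and passed (adjusted p = 0.0412). These weights also raised the calls over all probe sets, from 1343 higher and 1522 lower to 1674 and 2018.

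The ligands did not pass. Igf1 was bright, at the 96.1 percentile for 1370333_a_at, which ranged from 10.04 to 10.98 in treated rats, against 9.85 to 10.77 in control rats. Its log2 difference was 0.09 ± 0.11 (SE, adjusted p = 0.680), and that of 1388469_at was 0.21 ± 0.13 (adjusted p = 0.285). Both Igf1 probe sets followed each other from rat to rat (r = 0.936, p = 1e-05, adjusted p = 3e-05; rho = 0.927, p = 1e-05, adjusted p = 4e-05; r = 0.924 without the 2 farthest rats). The value 1e-05 is the smallest p that 100000 permutations can give.

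Igf2, the ligand known for its role in fetal growth, has 4 probe sets. The brightest, 1367571_a_at, ranged from 8.02 to 9.89 in treated rats, against 7.98 to 9.65 in control rats, and its log2 difference was 0.06 ± 0.22 (SE, adjusted p = 0.904). The other 3 lie at the 9.9 to 28.5 percentile of the array, and their differences of -0.01, 0.00 and 0.04 had adjusted p values of 0.900, 0.993 and 0.429. None of the 6 pairs of Igf2 probe sets correlated past the threshold, with r from -0.0860 to 0.297.

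Igf1r, the receptor of both ligands, ranged from 8.54 to 8.94 in treated rats, against 8.52 to 9.07 in control rats. Its log2 difference was -0.06 ± 0.06 (SE, adjusted p = 0.576), and its 95% confidence interval ran from -0.19 to 0.07. Igfbp3, the main carrier of IGF1 in blood, ranged from 8.15 to 9.99 in treated rats and from 8.41 to 10.25 in control rats by 1386881_at (difference -0.17 ± 0.20, adjusted p = 0.653). Its second probe set, 1367652_at, differed by -0.03 ± 0.10 (adjusted p = 0.903). Igfbp6, which prefers IGF2 as its ligand, gave differences of 0.09 ± 0.14 (1372168_s_at, adjusted p = 0.765) and 0.12 ± 0.16 (1387625_at, adjusted p = 0.681). The probe set pairs of Igfbp3 (r = 0.889, rho = 0.894) and Igfbp6 (r = 0.953, rho = 0.913) each varied together over the rats, with a permutation p of 1e-05 for each r and rho, adjusted 3e-05 for r and 4e-05 for rho over 12 pairs. Without the 2 farthest rats r was 0.872 for Igfbp3 and 0.931 for Igfbp6. The annotation lists both Igfbp3 probe sets under 1 source sequence and the Igfbp6 probe sets under different ones.

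**Figure D2:**
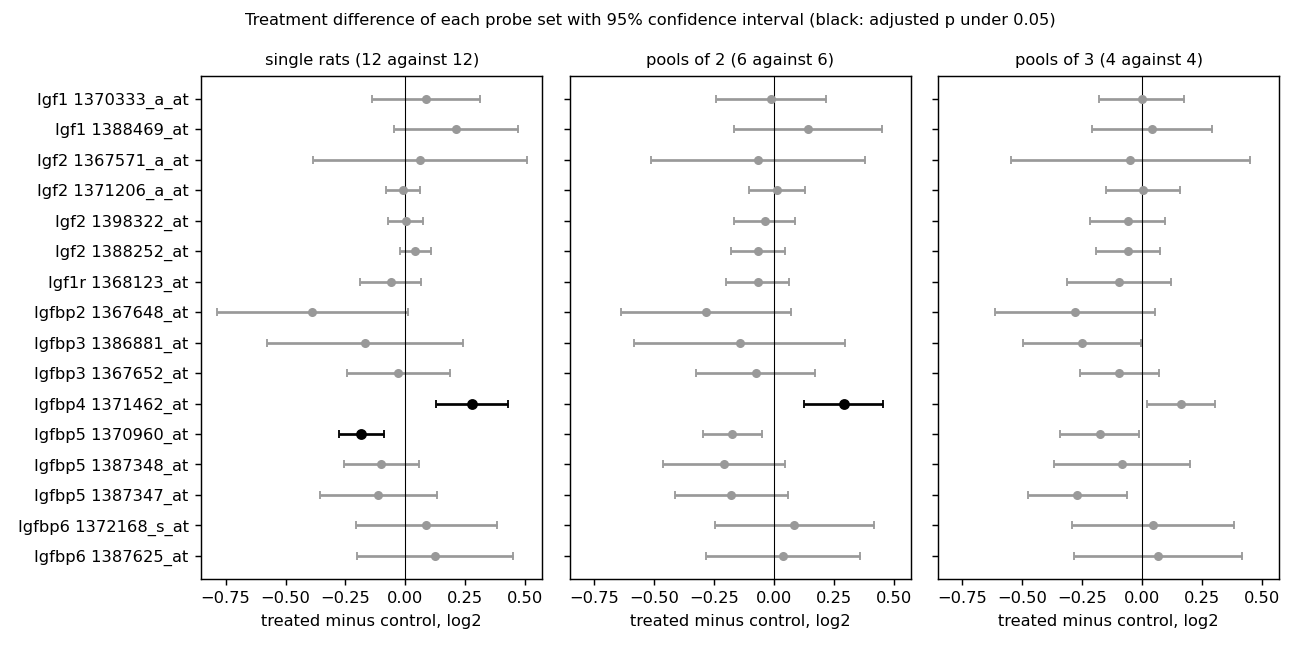
Log2 difference, treated minus control, of the 16 IGF probe sets (rows) in single rats, pools of 2 and pools of 3, with 95% confidence intervals. Black marks an adjusted p under 0.05: Igfbp4 in single rats and pools of 2, and Igfbp5 1370960_at in single rats.

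The pools hold the same rats, so they repeat the comparison with fewer arrays and are not independent of it. In pools of 2, 1 IGF probe set was higher and 0 were lower, against 8.82% of all probe sets called, 5.15% higher and 3.67% lower. Igfbp4 read 10.53, 10.71, 10.53, 10.25, 10.32 and 10.44 in the 6 treated pools, against 10.31, 10.22, 10.12, 10.21, 9.96 and 10.21 in the 6 control pools. The groups overlapped only through 1 treated and 1 control pool, and the log2 difference of 0.29 ± 0.08 (SE) had a limma adjusted p of 0.0302. This call was lost when any of 5 of the 12 pools was left out (treated pool 1, 2 or 3, control pool 2 or 5), with adjusted p values up to 0.0718 and differences of 0.24 to 0.33 over all 12 omissions. It was also lost after quantile normalization (0.25, adjusted p = 0.0510).

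Igfbp5 1370960_at read 11.95, 12.06, 11.94, 12.05, 12.00 and 11.73 in treated pools of 2, against 12.17, 12.14, 12.06, 12.05, 12.14 and 12.21 in control pools. The difference of -0.17 ± 0.06 (SE) did not pass, with an adjusted p of 0.0792. It passed after quantile normalization (-0.23) and with array weights (-0.19). The other Igfbp5 probe sets differed by -0.21 and -0.18 (adjusted p = 0.363 and 0.423), and Igfbp2 by -0.28 (adjusted p = 0.381). The treated pool of rats 4 and 7, the treated animals lowest in Igfbp2 singly, was also the lowest pool for that gene, at 9.94.

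In pools of 3 no IGF probe set passed in either direction (limma, 0 of 16; 4 had an unadjusted p under 0.05, as did 19% of all probe sets), where 6.24% of all probe sets passed. Those 990 calls fell to 503 without treated pool 2, 650 without control pool 3 and 644 without control pool 4. Igfbp4 read 10.33, 10.45, 10.39 and 10.48 in treated pools, against 10.31, 10.32, 10.16 and 10.21 in control pools. The groups did not overlap, as was true of 12% of all probe sets, and the difference of 0.16 ± 0.07 had an adjusted p of 0.197. Igfbp5 1370960_at read 11.90, 12.10, 11.98 and 11.85 in treated pools, against 12.09, 12.26, 12.03 and 12.16 in control pools (difference -0.18 ± 0.08, adjusted p = 0.225). Its probe sets 1387348_at and 1387347_at differed by -0.09 and -0.27 (adjusted p = 0.827 and 0.126), and Igfbp2 by -0.28 (adjusted p = 0.366).

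The pools of 12 are 1 mixture a group, so their 4 arrays measure array error and allow no test of treatment. Igfbp4 lay at 10.40 to 10.49 on the treated and at 10.11 to 10.26 on the control arrays, a mean difference of 0.27. Igfbp5 1370960_at lay at 11.91 to 12.03 on the treated and at 12.11 to 12.21 on the control arrays, and its 3 probe sets differed by -0.18, -0.13 and -0.21. Igfbp2 differed by -0.29.

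Stage was compared because it is unequal between treatments. Outside diestrus minus diestrus, with treatment in the model, 0 of 16 IGF probe sets and 0% of all probe sets passed (limma; 3 of the IGF probe sets and 3.66% of all had an unadjusted p under 0.05). Those 3 were both Igf1 probe sets, with log2 differences of 0.24 ± 0.11 and 0.35 ± 0.12 (SE), and Igfbp4, with 0.19 ± 0.07. All had an adjusted p of 0.999. Among treated rats Igf1 1370333_a_at averaged 10.69 ± 0.21 in the 6 outside diestrus and 10.33 ± 0.31 in the 6 in diestrus. Among control rats it averaged 10.47 ± 0.17 in the 3 outside and 10.41 ± 0.27 in the 9 in diestrus.

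Within diestrus, 0 IGF probe sets were higher and 1 was lower, against 8.73% of all probe sets called, 4.3% higher and 4.43% lower. Over all probe sets the 1385 calls fell to 818 without treated rat 7 and to 913 without treated rat 4. Igfbp5 1370960_at averaged 11.98 ± 0.11 in the 6 treated and 12.20 ± 0.10 in the 9 control rats (SD), a difference of -0.22 ± 0.05 (SE) with a limma adjusted p of 0.0196. Igfbp4 averaged 10.31 ± 0.09 in treated and 10.06 ± 0.23 in control rats, and its difference of 0.25 ± 0.09 did not pass (adjusted p = 0.112). It passed without control rat 14 (0.29) and with array weights (0.29). Igfbp2 differed by -0.49 (adjusted p = 0.375), Igf1 1370333_a_at by -0.08 (adjusted p = 0.824) and Igfbp6 1387625_at by 0.36 (adjusted p = 0.225).

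Outside diestrus, with 6 treated and 3 control rats, 0 of 16 IGF probe sets and 1.48% of all passed (2 IGF probe sets and 13.2% of all had an unadjusted p under 0.05). The 235 calls over all probe sets fell to 0 without treated rat 12 or control rat 3, numbered 583 without treated rat 3, and fell to between 11 and 118 without any other of the 9 rats. Igfbp4 differed by 0.20 ± 0.09 (SE, adjusted p = 0.370) and Igfbp5 1370960_at by -0.10 ± 0.09 (adjusted p = 0.806). Igfbp2 differed by -0.36, Igf1 1370333_a_at by 0.22 and Igfbp6 1387625_at by -0.18, with adjusted p values of 0.363, 0.530 and 0.922. The sign for Igfbp6 turned to 0.11 without control rat 10. The treatment difference did not differ detectably between the stage classes: in the interaction test 0 of 16 IGF probe sets passed, with 0% of all probe sets called (0 of the IGF probe sets and 2.03% of all had an unadjusted p under 0.05).

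The spread between rats differed widely between the genes. The SD between rats of a group was 0.568 on the log2 scale for Igf2 1367571_a_at, against 0.0924 between repeat arrays of 1 target, a ratio of 6.15. For Igfbp3 1386881_at the SD was 0.521 between rats and 0.105 between arrays, and for Igfbp2 it was 0.507 and 0.112. Igfbp4 (0.186 and 0.0549) and Igfbp5 1370960_at (0.112 and 0.0496) varied less, as did Igf1r (0.157 and 0.0696) and Igfbp5 1387348_at (0.198 and 0.0475). In SD between rats, Igfbp4 still stood at the 82.4, Igf1r at the 73.8 and Igfbp5 1387348_at at the 84.6 percentile of all probe sets. Igfbp5 1370960_at stood at the 45.1 percentile, and the Igf1 and Igfbp6 probe sets lay at the 93.9 to 98.0 percentile. For the 3 dim Igf2 probe sets the SD between rats was 0.0718 to 0.0858, within the range of their repeat arrays (0.0689 to 0.0984). Over all 15866 probe sets the median ratio was 1.19.

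**Figure D3:**
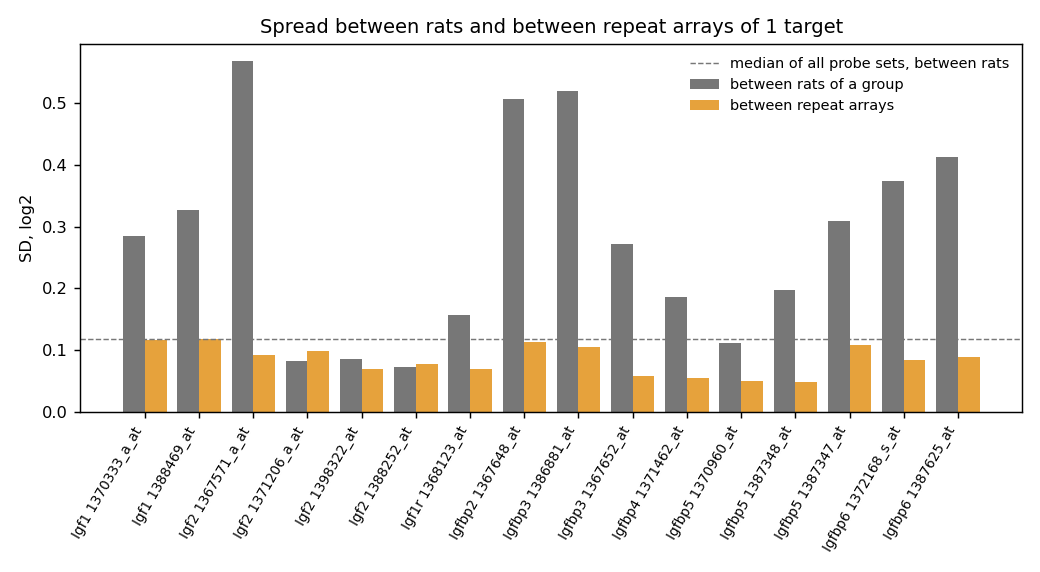
SD in log2 units of each IGF probe set between rats of a group (grey) and between repeat arrays of 1 target (orange), with the median SD between rats of all probe sets as a dashed line. The brightest Igf2 probe set, Igfbp3 1386881_at and Igfbp2 have SDs of 0.507 to 0.568 between rats, against 0.0924 to 0.112 between repeat arrays.

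Relations between genes were examined over the 24 rats, each value taken as its deviation from the mean of the treatment group and 1 probe set used per gene. Of 28 pairs, 2 passed after adjustment. How often pairs of other genes on the array pass was not computed, so this count does not set the IGF genes apart. Igf2 and Igfbp2 were high in the same rats (r = 0.639, p = 0.00115, adjusted p = 0.0161; rho = 0.747, p = 7e-05, adjusted p = 0.00196; two-sided permutation within groups). The r was 0.722 within treated and 0.565 within control rats, and 0.638 without the 2 rats farthest from the median.

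Igfbp2 and Igfbp3 ran opposite to each other (r = -0.669, p = 0.00103, adjusted p = 0.0161; rho = -0.510, p = 0.0135, adjusted p = 0.0945). This relation rests on few animals. The 4 rats lowest in Igfbp2 against their group mean, treated rats 4 and 7 and control rats 5 and 14, all in diestrus, had Igfbp3 values of 9.72, 9.28, 9.62 and 10.25. Over the other 20 rats r was -0.291 and rho -0.224 for Igfbp2 with Igfbp3, while Igf2 with Igfbp2 kept an r of 0.632 and a rho of 0.662. The 4 rats were chosen after their values were seen, so these are descriptions. With the stage means also removed, Igfbp2 with Igfbp3 no longer passed (r = -0.654, adjusted p = 0.0501). Igfbp3 and Igfbp5 had an r of 0.538 that did not pass (adjusted p = 0.0817; rho = 0.514, adjusted p = 0.0945). With equal array medians this pair passed for r in the same permutation test (r = 0.579, adjusted p = 0.0358).

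**Figure D4:**
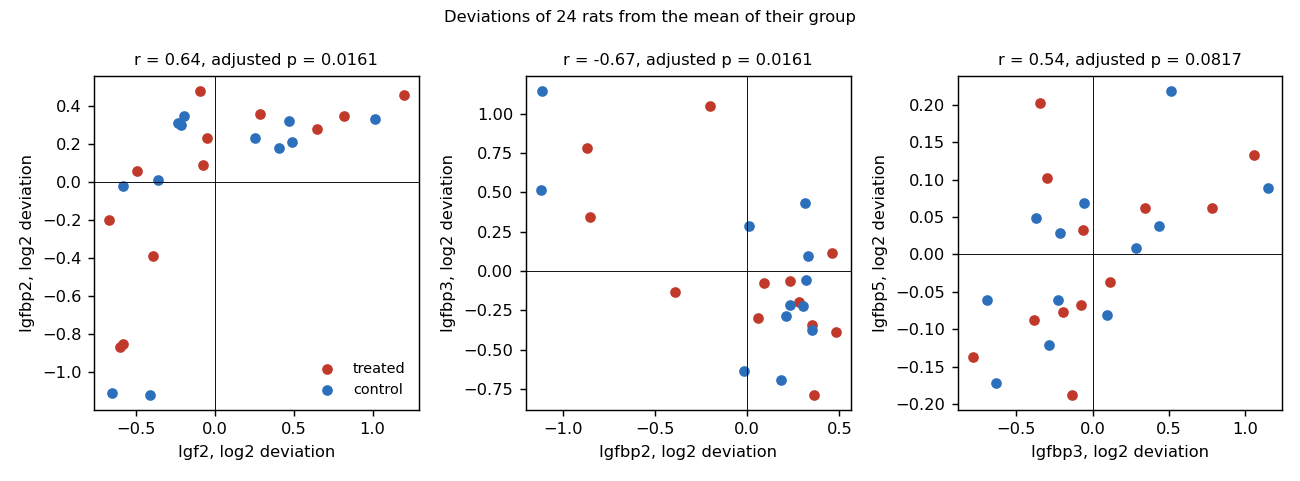
Deviation of each of 24 rats from its group mean, log2, for Igf2 with Igfbp2, Igfbp2 with Igfbp3, and Igfbp3 with Igfbp5 (treated red, control blue). The middle panel shows 4 rats far to the left, without which r is -0.291.

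The same deviations were set against the mean level of 8 cell type marker lists, 64 relations chosen after other results were known, of which 11 passed for r and 9 of these also for rho. How often other genes of the array pass such relations was not computed, so these counts do not set the IGF genes apart. Igfbp2 was low where adipocyte markers were high (r = -0.747, p = 2e-05, adjusted p = 0.00064; rho = -0.743, p = 5e-05, adjusted p = 0.0016; r = -0.727 without the 2 farthest rats). It was also low where endothelial markers were high (r = -0.772, adjusted p = 0.00341; rho = -0.667, adjusted p = 0.00896; r = -0.619 without the 2 farthest rats). Of the 4 rats lowest in Igfbp2, control rats 5 and 14 had endothelial means of 8.452 and 8.423 (control range 7.735 to 8.452). Treated rats 4 and 7 had 8.085 and 8.16 (treated range 7.668 to 8.232). The adipocyte means of treated rats 4 and 7 were 11.31 and 11.46 (treated range 10.51 to 11.46). Those of control rats 5 and 14 were 10.63 and 11.1 (control range 10.14 to 11.1). The relations of Igfbp2 with the marker lists were not computed without these 4 rats. Igf2 was low where adipocyte (r = -0.661, adjusted p = 0.00672) and endothelial markers were high (r = -0.753, adjusted p = 0.00064). Without the 2 farthest rats these r were -0.660 and -0.742. Igfbp2 was high where basal epithelial (r = 0.599, adjusted p = 0.0176) and fibroblast markers were high (r = 0.609, adjusted p = 0.0176), and both also passed for rho. Without the 2 farthest rats these r fell to 0.546 and 0.450. With luminal epithelial markers Igfbp2 passed the permutation test for rho alone (rho = 0.625, adjusted p = 0.0164, with r = 0.4365, adjusted p = 0.134). That r was 0.789 within treated and 0.0323 within control rats, and 0.678 without the 2 farthest rats. Igfbp3 was high where endothelial (r = 0.674, adjusted p = 0.00627), adipocyte (r = 0.574, adjusted p = 0.0298) and macrophage markers were high (r = 0.559, adjusted p = 0.0352), of which the endothelial relation alone passed for rho. Without the 2 farthest rats these r fell to 0.539, 0.434 and 0.392, in that order. Igfbp6 followed macrophage (r = 0.673, adjusted p = 0.00627) and endothelial markers (r = 0.558, adjusted p = 0.0352), and both passed for rho. Without the 2 farthest rats these r were 0.6325 and 0.648. For Igfbp5 none of 8 lists passed, with r from -0.269 to 0.523.

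For Igfbp4 none of 8 lists passed over both groups, with r from -0.347 to 0.403. For the epithelial lists the r within each group had opposite signs. Within the 12 control rats Igfbp4 was high where luminal epithelial markers were low (r = -0.926, rho = -0.902, r = -0.953 without the 2 rats farthest from the median). Within the 12 treated rats r was 0.270 and rho 0.444. With basal epithelial markers r was 0.547 within treated and -0.354 within control rats. These were singled out after the values were seen, so they are descriptions, and the difference between the groups was not tested. Opposite signs also occurred for other genes, as for Igf1 with macrophage markers (r = -0.350 within treated, 0.582 within control rats). Luminal markers were also lower in treated rats, where Igfbp4 was higher, and the part of epithelial content in the Igfbp4 difference was not tested.

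The genes whose deviations were most like those of each member over the 24 rats were taken from the whole array, as a description. For Igfbp2 these were Matn2 (r = 0.941), Clca1 (0.938) and Postn (0.932), of which Matn2 and Postn encode extracellular matrix proteins. For Igfbp6 they were Antxr2 (0.898), Mamdc2 (0.875) and Timp2 (0.845), and for Igfbp3 Ctsl (0.870), Rnaset2 (0.868) and Dapk1 (0.848). Igf2 was most like Pola1 (0.841), a subunit of the replicative DNA polymerase, Sf3a3 (0.835) and Lmnb2 (0.829). Igfbp5 1370960_at was most like Wbp4 (0.851), Tpra1 (0.837) and Zfp347 (0.828). Igf1 (Ddrgk1 0.796, Slc1a3 0.794, Ccdc80 0.783), Igf1r (Zfp36 0.736, Plaat5 0.709, Wdtc1 0.701) and Igfbp4 (Mfsd12 0.738, Axin2 0.689, Akap12 0.678) had weaker nearest genes.

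Larger differences than those of the members were found among other genes of the pathway. With 1 probe set per gene, 20.9% of all 10411 genes passed in this comparison, and the counts of each list stand against that share. Of 9 measured genes of the growth hormone axis, 1 was higher and 2 were lower, with a median log2 difference of -0.07. Ghr, the growth hormone receptor, ranged from 8.89 to 10.54 with a median of 10.015 in treated rats, against 8.22 to 9.33 with a median of 8.605 in control rats. Its log2 difference was 1.25 ± 0.17 (SE, 2.37-fold, adjusted p = 1.338e-05), and its second probe set differed by 1.04 ± 0.18 (adjusted p = 0.0001805). Cish, a STAT5 target that dampens cytokine signalling (-0.39 ± 0.10, adjusted p = 0.00743), and Jak2, the kinase bound to the receptor (-0.26 ± 0.08, adjusted p = 0.0275), were lower. Stat5a, the transcription factor downstream, did not pass (-0.11 ± 0.04, adjusted p = 0.0507).

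Of 11 measured proteases of the binding proteins and their inhibitors, 3 were higher and 1 was lower, with a median of 0.08. Ctsd, a lysosomal aspartic protease, ranged from 11.62 to 12.38 in treated rats, against 11.05 to 11.75 in control rats (0.74 ± 0.10, adjusted p = 8.229e-06). Pappa2, a metalloprotease that cuts IGFBP5 and IGFBP3, ranged from 7.09 to 8.06 in treated rats, against 6.73 to 7.08 in control rats, and so the groups did not overlap, as was true of 0.523% of all probe sets. Its difference was 0.60 ± 0.08 (adjusted p = 1.715e-05), while a second, dimmer probe set differed by 0.09 (adjusted p = 0.0603). Htra1, a serine protease known to cut IGFBP5, was higher (0.37 ± 0.11, adjusted p = 0.0167), and Plg, the precursor of plasmin, was lower (-0.36 ± 0.11, adjusted p = 0.0260).

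Of 20 measured genes that signal downstream of the receptor, 2 were higher and 4 lower, with a median of -0.05. Irs2, an adaptor of the insulin and IGF1 receptors (-0.32 ± 0.08, adjusted p = 0.00818), Pik3r1, a regulatory subunit of PI3 kinase (-0.18 ± 0.05, adjusted p = 0.00636), and Foxo3, a transcription factor held back by Akt (-0.31 ± 0.06, adjusted p = 0.000446), were lower. The 2 dimmer Foxo3 probe sets differed by 0.01 and 0.03. Akt2, the Akt isoform prominent in insulin signalling, was higher by 0.31 ± 0.07 (adjusted p = 0.00203), and its other probe sets differed by 0.17 and 0.32. Of the 8 other ligands, receptors and binding proteins measured, 0 passed, with a median of 0.01. The 4 of them with the smallest p, Ins2, Igfbp1, Insr and Igf2r, differed by 0.11, 0.05, -0.03 and 0.03, and a second Igf2r probe set differed by -0.12 (adjusted p = 0.205).

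**Figure D5:**
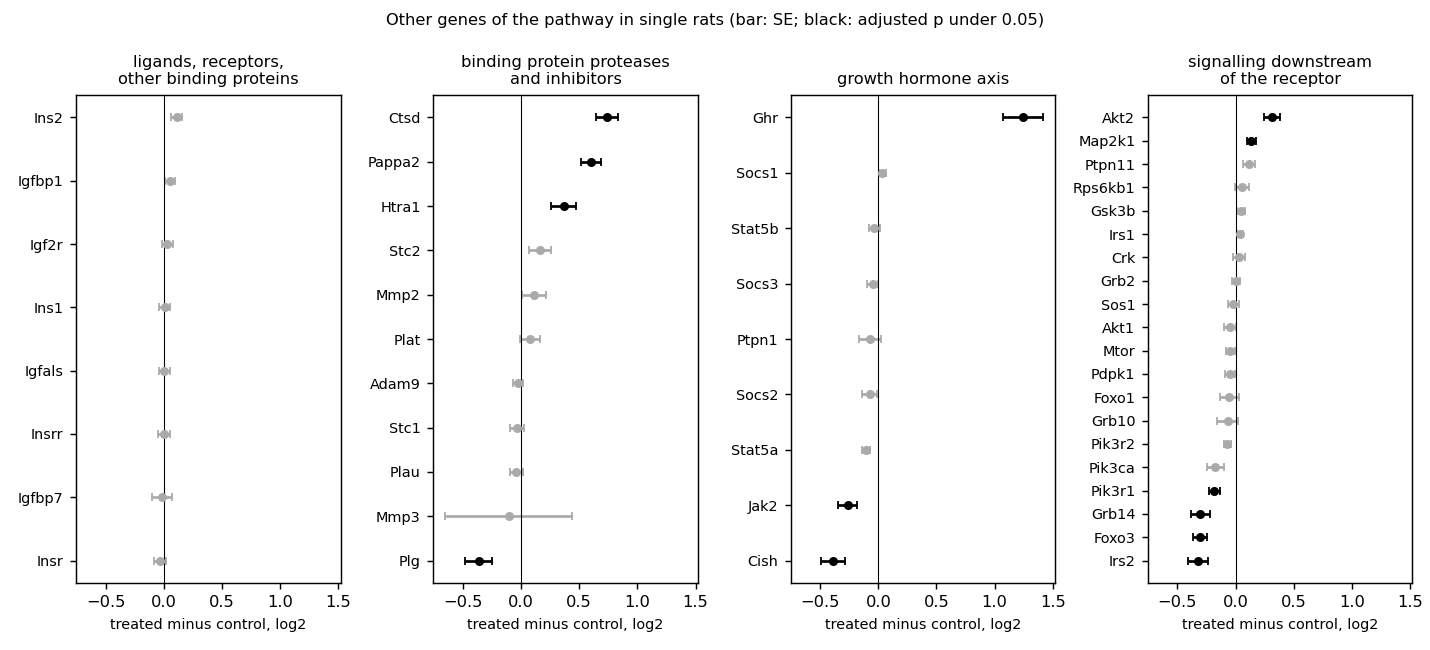
Log2 difference, treated minus control, in single rats (12 each) with its SE for genes of 4 pathway lists, 1 probe set per gene, black where the adjusted p was under 0.05. Ghr, at 1.25, and Ctsd and Pappa2, at 0.74 and 0.60, stand farthest from 0.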

How the data were processed

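Mammary RNA of individual rats, singly or in pools of their targets, was measured on 56 arrays with 15923 probe sets. Per the labels, 5 µg of RNA of each gland was labelled, and pools were mixed from fragmented targets to 10 µg. The authors deposited 1 normalized log2 value per probe set and array; the unit and the normalization between arrays were inferred from the values, and for the software and background correction the sources used here give no name. The number of arrays, not a read depth, limits the precision.

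The 57 array control probe sets were left out, and no filter was applied. Symbols came from the array annotation, updated by Entrez number, with 1 symbol for 12783 probe sets, several for 312 and none for 2771. Groups, rats and stages came from the labels. The source label of some pool of 12 arrays reads as individual while their titles read as pools, and the titles were used. Treatment, stage and their interaction were tested with limma 3.58.1 (R 4.3.3), lmFit and eBayes on all 15866 probe sets, Benjamini-Hochberg adjusted. The treatment fit was also run on simulated data with independent noise per probe set and planted differences larger than those of Igfbp4 and Igfbp5. Such data lack the correlation between probe sets of real arrays, so they cannot check the calls of these genes. Correlations used 100000 permutations within groups (Python 3.11.15, scipy 1.17.1).

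The text names every IGF probe set, the 4 genes of each pathway list with the smallest p and the 3 genes most like each member. The members and lists were chosen with earlier results of these data known, and the correlations between probe sets of a gene were added after seeing the data. Alternatives were other scalings, a filter on dim probe sets, another variance prior, array weights, single arrays left out, stage, rat number and technical covariates. The deviations of same-numbered treated and control rats had r from -0.389 to 0.358 (10 pairs, median 0.117). Rats of unlike number were not compared, so these values cannot decide whether the numbers pair the animals. Rat number entered only as an alternative. The labels give each rat as a separate animal.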

Additional observations from a re-analysis of the deposited data

Results flagged for a closer look

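Of 144 groups of 4 to 10 arrays, 15 held a value whose gap to the nearest other value was large against the group's whole range, where chance gives about 1 in 20. Pools made up 96 of the 144 groups and held 10 of the 15 values.

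Among pools of 2, the treated pool of rats 4 and 7 was lowest in Igfbp2 at 9.94, the next at 10.76. The treated pool of rats 2 and 3 was lowest in Igf1r at 8.55, the treated pool of rats 8 and 9 lowest in Igfbp5 1370960_at at 11.73, and the control pool of rats 12 and 14 lowest in Igfbp5 1387347_at at 8.31. Among pools of 3, the control pool of rats 12, 14 and 15 was lowest in Igf1 1388469_at at 9.69 and in Igfbp5 1387348_at at 8.88, and the control pool of rats 6, 8 and 9 was highest in Igfbp2 at 11.48. Among the arrays of the pools of 12, treated array 4 was lowest in Igfbp3 1386881_at at 9.09, control array 4 lowest in Igfbp2 at 10.83 and control array 1 highest in Igf2 1367571_a_at at 8.77.

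Among single rats outside diestrus, treated rat 10 was highest in both Igfbp6 probe sets, at 11.18 (1372168_s_at) and 10.15 (1387625_at), and treated rat 14 was highest in Igfbp5 1387348_at at 9.60. In diestrus, treated rat 9 and control rat 12 were each highest in the dim Igf2 probe set 1388252_at, at 5.43 in both groups.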

How the results depend on the processing

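The calls of Igfbp4 and Igfbp5 1370960_at in single rats held under all alternatives run. With stage as a covariate they differed by 0.23 (limma adjusted p = 0.0192) and -0.17 (adjusted p = 0.01225). With rat number as a replicate block they differed by 0.33 (adjusted p = 0.00796) and -0.22 (adjusted p = 0.0109), with 1 probe set higher and 1 lower as without it, and the pool block changed no call. With the technical score, drawn from differences between repeat arrays, as a covariate, Igfbp5 differed by -0.17 and Igfbp4 by 0.27, and both passed. Over the 24 rats Igfbp5 1370960_at had an r of -0.469 with this score (permutation p = 0.024, adjusted p = 0.186). That r was -0.760 within treated and -0.173 within control rats. For Igfbp4 the r with the score was 0.105. Counts of IGF probe sets called moved as follows. Array weights gave 2 lower in single rats (Igfbp2 added), 1 lower in pools of 2, 1 higher in pools of 3 and 1 higher in diestrus. Quantile normalization gave 0 higher and 1 lower in pools of 2, and leaving out both pools with rat 3 gave 0 higher. Leaving out 1 pool of 2 gave 0 to 1 higher, and leaving out 1 rat in diestrus gave 0 to 1 higher. The correlated pairs fell to 1 with stage means removed, while with equal array medians Igfbp3 with Igfbp5 passed (r = 0.579). Over all probe sets, array weights gave 1674 higher and 2018 lower in single rats (1343 and 1522 as reported). They gave 881 and 887 in pools of 2 (817 and 583), where quantile normalization gave 847 and 689. Array weights gave 693 and 868 in pools of 3 (518 and 472) and 1135 and 1274 in diestrus (682 and 703). Equal array medians gave 592 and 300 in pools of 3 and 98 and 15 outside diestrus (190 and 45), and pools of 3 without rat 3 gave 281 and 179. Without 1 array the calls over all probe sets ranged from 0 to 583 outside diestrus, 818 to 1602 in diestrus and 503 to 1020 in pools of 3. The causes were not tested.

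Signs turned for differences that had not passed. For Igf2 1398322_at the difference was -0.0066 after quantile normalization, -0.0015 with stage, -0.019 with the replicate block and -0.0109 with the technical score, and -0.0178 to 0.0195 without single rats. Without single rats Igf2 1371206_a_at ran from -0.0255 to 0.0017, Igf2 1367571_a_at from -0.0489 to 0.15 (-0.11 with array weights), Igfbp3 1367652_at from -0.0777 to 0.0241, and Igfbp6 1387625_at outside diestrus from -0.48 to 0.11. The r of Igf1 with Igfbp6 turned to 0.0942 with stage means removed. Outside single rats, separate values were followed only for the probe sets described, a choice made after sign changes had been seen. Over all 16 probe sets the sign changed in 22 of 534 values in single rats, 23 of 302 in pools of 2, 20 of 222 in pools of 3, 14 of 318 in diestrus, 6 of 222 outside it and 24 of 462 for stage, and no value passed after such a change (lowest adjusted p 0.680). Leaving out rats in the stage comparisons, and the 4 rats lowest in Igfbp2, was chosen after seeing the data. Dim probe sets limit what the 3 lower Igf2 probe sets can show.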
